A study of Mus musculus with 9 samples.

Results

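The genes described here are those of the integrated stress response and the unfolded protein response, a list of 42 genes looked up by symbol in a deposited expression table of 15526 rows. All 42 have a row; Ddit3 has 2, so that the set covers 43 rows. They were divided by function into an ATF4 arm of 19 genes (the transcription factor ATF4, its targets and amino acid transporters), an ER arm of 19 genes (chaperones, folding enzymes, degradation factors and Xbp1) and 4 stress sensors. The values come from mouse embryonic stem cells of 129 background, kept without treatment, in 3 groups of 3 libraries: wild type (WT), and the knockout lines KO1 and KO2, which were edited separately to remove Kif2a. KIF2A is a kinesin that shortens microtubules from their ends, and the study's title places it at the bridge between dividing cells. Each knockout group is 1 line, so that what a line carries besides the loss of Kif2a cannot be told apart from that loss. Whether the 3 libraries of a group came from separate cultures is not in the labels, so the spread behind each p-value is that of these libraries and may be technical.

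The unfolded protein response senses misfolded protein in the endoplasmic reticulum (ER) through the membrane proteins IRE1 (gene Ern1), PERK (Eif2ak3) and ATF6. Active IRE1 splices the Xbp1 mRNA, and the factors XBP1 and ATF6 then raise transcription of ER chaperones. PERK, and GCN2 (Eif2ak4) when amino acids are short, phosphorylate the translation factor eIF2; this lowers protein synthesis in general while translation of the Atf4 mRNA increases, and ATF4 switches on genes of amino acid synthesis and uptake. Much of this control acts on translation, splicing and protein cleavage, which gene-level mRNA values do not show: neither the ATF4 protein nor the spliced form of Xbp1 was measured here.

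The libraries held between 14960295 and 18814858 assigned reads, and no pair within a group was a copy of another. Kif2a stood at 109, 121 and 113 in WT, at 0.886, 1.16 and 0.957 in KO1, and at 1.06, 0.710 and 1.75 in KO2. The 6 knockout libraries thus averaged 0.952% of the WT level (p = 0.0119 in an exact permutation test, two-sided, over all 84 assignments, which can go no lower). All values are read counts that the authors scaled between libraries. All 10 embryonic stem cell markers checked were in the table, and their summed value ran from 11759 to 12220 in WT, from 12141 to 12353 in KO1 and from 12558 to 12954 in KO2, with Pou5f1 averaging 2362 in WT and 2400.4 in KO2. Single markers went both ways in KO2: Dppa5a and Tdgf1 were called higher, and Zfp42 and Sall4 lower. The mitochondrial share of reads was 0.847% and 0.860% in KO2 replicates 1 and 2 and 1.03% in KO2 replicate 3, against 0.962% to 1.08% in WT and 0.906% to 1.01% in KO1, so that KO2 replicates 1 and 2 stood below all other libraries.

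The DNA elements through which each arm is known to be controlled were searched for in the members' promoters. ATF6, with the factor NF-Y, binds the ER stress response element (ERSE, the letters CCAAT and CCACG with 9 free bases between them), and ATF4 with a C/EBP partner binds the amino acid response element (CARE, searched here as TGATGNAA). Both were searched on both strands from 250 bases before to 50 bases after each RefSeq start site (GRCm38.p6). Of the 42 genes, 36 had an entry in the promoter table; those without one are Eif4ebp1, Slc7a5, Slc7a3, Hyou1, Manf and Atf6. The ERSE was present in 8 of 17 ER arm genes, in 0 of 16 ATF4 arm genes and in 0 of 3 sensors, against 0.119% of all 32851 promoters. The matches of these 8 genes are shown for their 9 middle bases, since the letters at each end are fixed by the search. Hsp90b1 holds the element on each strand. Each sequence reads along the strand that holds the match, and the capitals are the whole element.
Hspa5: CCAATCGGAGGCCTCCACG
Hsp90b1, match on the gene's strand: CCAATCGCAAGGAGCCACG
Hsp90b1, match on the other strand: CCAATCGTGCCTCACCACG
Calr: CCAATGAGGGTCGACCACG
Canx: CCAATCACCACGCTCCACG
Pdia6: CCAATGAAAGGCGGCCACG
Creld2: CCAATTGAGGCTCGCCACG
Dnajc3: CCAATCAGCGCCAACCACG
Syvn1: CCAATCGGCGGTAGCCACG

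CARE was present in 7 of 16 ATF4 arm genes and in 1 of 17 ER arm genes, against 3.97% of all promoters. The matches are shown with 5 flanking bases on each side, the element in capitals; Slc7a11 holds 2.
Asns: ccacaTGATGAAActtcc
Trib3: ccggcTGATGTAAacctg
Chac1: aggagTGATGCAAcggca
Nupr1: ctgtcTGATGCAAtctgg
Atf3: cttggTGATGCAAgtgcg
Vldlr: agcgcTGATGCAActatt
Slc7a11, first: gtggcTGATGCAAacctg
Slc7a11, second: catgaTGATGCAAattct
Herpud1 (ER arm): cgggcTGATGCAAcccgc

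The shorter ERSE-II (ATTGG and CCACG with 1 free base between them) was found in Dnajb11 and Herpud1 and in 0.0365% of all promoters. The XBP1 element UPRE (TGACGTGG) was in no member and in 0.676% of all promoters. The 250 bases before the start site are given in full for the ER arm genes with a promoter entry and the smallest adjusted p in any comparison, with each ERSE in capitals, so that its place among other sequence can be seen. They are chr11:50325674-50325923 on the minus strand for Canx, chr10:86705445-86705694 on the minus strand for Hsp90b1, where the second capital run is the element read from the other strand, and chr12:17266339-17266588 on the plus strand for Pdia6. All are written 5′ to 3′ along the gene.
Canx: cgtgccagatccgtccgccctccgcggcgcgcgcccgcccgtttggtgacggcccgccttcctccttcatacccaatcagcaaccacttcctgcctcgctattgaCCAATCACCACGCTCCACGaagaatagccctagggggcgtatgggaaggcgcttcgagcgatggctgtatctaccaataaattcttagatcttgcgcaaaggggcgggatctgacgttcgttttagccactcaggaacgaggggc
Hsp90b1: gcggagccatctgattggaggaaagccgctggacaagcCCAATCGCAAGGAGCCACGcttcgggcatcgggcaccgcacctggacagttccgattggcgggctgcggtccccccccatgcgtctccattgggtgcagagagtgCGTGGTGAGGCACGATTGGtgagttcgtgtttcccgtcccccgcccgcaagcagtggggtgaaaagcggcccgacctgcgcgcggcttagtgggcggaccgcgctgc
Pdia6: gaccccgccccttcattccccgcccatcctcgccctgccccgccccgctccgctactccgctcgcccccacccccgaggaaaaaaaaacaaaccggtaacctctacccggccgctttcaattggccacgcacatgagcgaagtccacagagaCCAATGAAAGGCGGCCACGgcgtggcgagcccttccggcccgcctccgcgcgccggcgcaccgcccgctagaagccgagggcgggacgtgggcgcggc
In the ATF4 arm the same rule gave Atf4, Slc7a1 and Slc3a2. Their promoter entries held no match to any of the elements searched and are not printed. A match is a description of these letters and not evidence of binding in these cells.

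In WT cells the set was dominated by ER chaperones and by asparagine synthetase. On the scale of the WT mean value per kb of merged exon, Calr was highest at 825, followed by Asns at 486, Hsp90b1 at 386 and Eif4ebp1 at 352. Pdia4, Hspa5 and Pdia3 stood next at 245, 245 and 244, levels that lie within a few percent of each other and whose order is not resolved. Atf4 itself stood at 230. The sensors were low, from 4.48 per kb for Ern1 to 12.8 for Eif2ak3, and the cystine transporter gene Slc7a11 was at 0.0552. Ddit3 was left out of this scale because its reads may be split between overlapping annotated genes of the same name. Of the 42 genes, 38 averaged 10 or more across all 9 libraries and were tested. The untested Atf3, Cebpb, Vldlr and Slc7a11, all of the ATF4 arm, ran from 0 in Slc7a11 (KO2 replicates 1 and 2) to 9.35 in Vldlr (KO2 replicate 3).

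**Figure D1:**
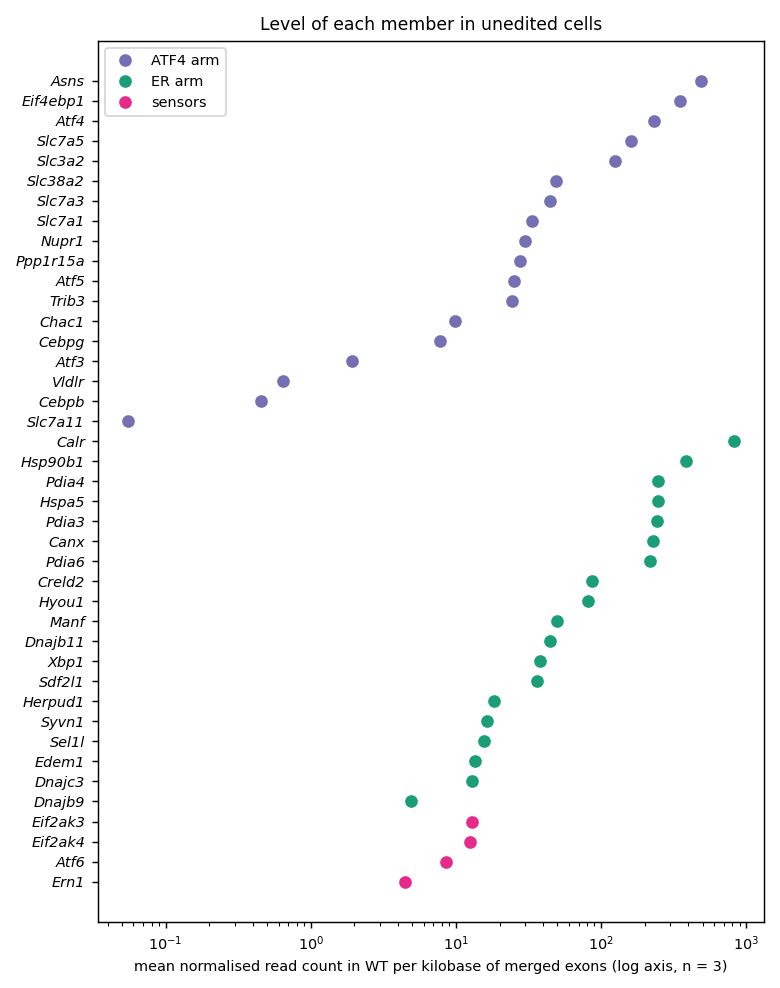
WT level of each member with a single annotated gene, as the mean value of 3 libraries per kb of merged exon on a log axis, coloured by arm. Calr stood at 825 per kb, Atf4 at 230 and Ern1 at 4.48.

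In KO2 genes of the ER arm rose and genes of the ATF4 arm changed in both directions. Of 19 ER arm genes, 8 (42.1%) rose against WT and 0 fell; 1 was lower at an unadjusted p under 0.05, Herpud1, which edgeR called lower and DESeq2 did not. Of 15 tested ATF4 arm genes, 3 (20%) rose and 5 (33.3%) fell. Among all 10238 tested genes 11.0% were called higher and 7.51% lower in this comparison (limma, Benjamini-Hochberg adjusted p under 0.05), the background for these shares; the difference from it was not tested. Over all genes the split was 1123 higher and 769 lower, and 897 and 1023 when libraries were scaled by median ratios. The changes were small: the largest called fall on the log2 scale was that of Slc7a3, by 0.39, and the largest called rises were 0.38, in Sdf2l1 and Ddit3. All fold changes are on the scale of log2(value + 1), with the standard error after the sign ±.

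**Figure D2:**
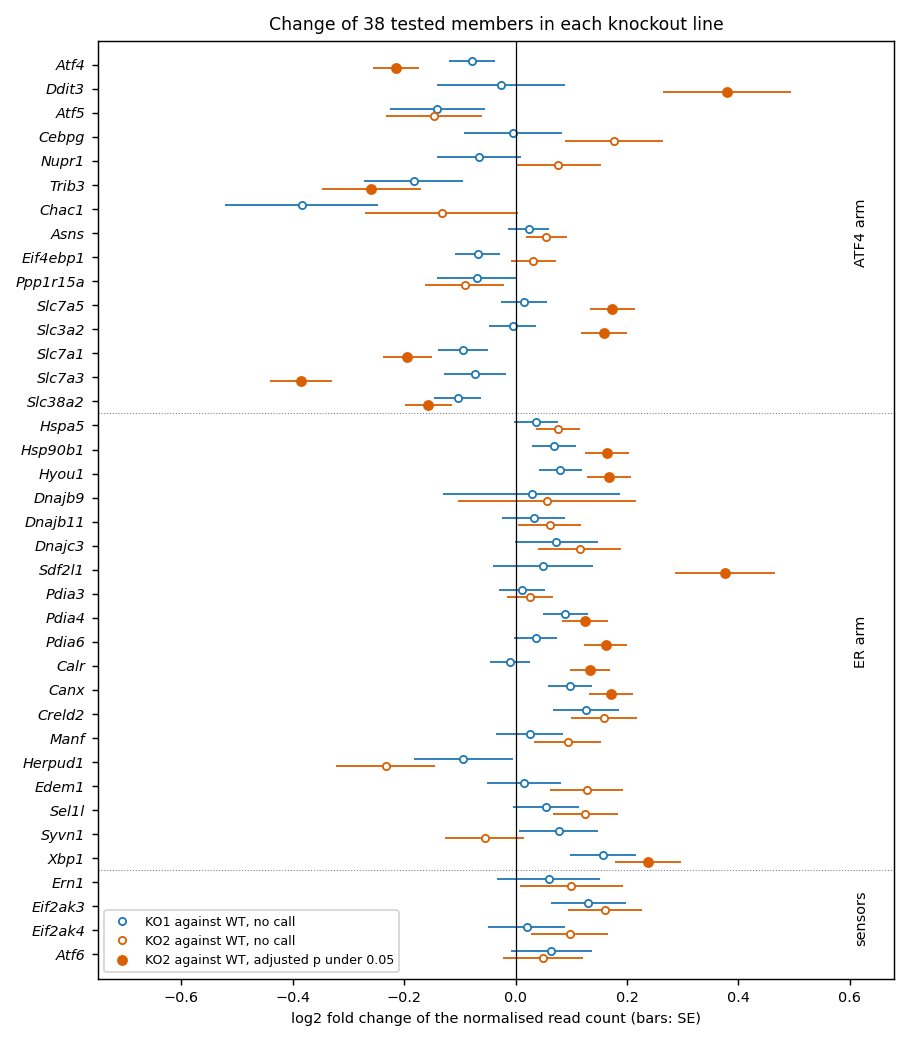
Log2 fold change of each tested member in KO1 against WT and KO2 against WT, with bars of 1 standard error from limma and filled points for genes at an adjusted p under 0.05. No KO1 point is filled; in KO2, 8 ER arm genes are called higher, and the called ATF4 arm genes lie on both sides of 0.

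Atf4, on chromosome 15 (80255184 to 80257541, plus strand, GRCm38), was lower in KO2. Its values were 539, 546 and 544 in WT, 492, 514 and 537 in KO1, and 460, 479 and 466 in KO2. All KO2 libraries lay below all KO1 libraries, which lay below all WT libraries. The fall was -0.21 ± 0.04 in KO2 (adjusted p = 0.00013). In KO1 the difference of -0.08 ± 0.04 did not pass (adjusted p = 0.42).

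Ddit3 encodes CHOP, a factor downstream of ATF4 that is linked to cell death under lasting ER stress. It measured 22.9, 22.6 and 18.8 in WT, 23.1, 18.4 and 21.5 in KO1, and 29.8, 27.0 and 27.4 in KO2, all KO2 libraries above all others. It rose in KO2 by 0.38 ± 0.11 (adjusted p = 0.014); leaving out WT replicate 3 (0.29) or KO2 replicate 1 (0.34) ended the call. Thus Ddit3 and Atf4 were called in opposite directions in the same line. The second Ddit3 row, a short annotated gene lying wholly within the exons of the first, held 1.28 to 3.90 and was not tested; the 2 genes lie on the same strand, so the reads of Ddit3 may be split between the rows.

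Trib3, a pseudokinase induced by ATF4 and CHOP, measured 55.4, 53.1 and 47.2 in WT, 42.1, 48.4 and 46.2 in KO1, and 44.7, 47.7 and 37.6 in KO2. It was called lower in KO2 by -0.26 ± 0.09 (adjusted p = 0.033), though 1 KO2 library lay above the lowest WT library. Leaving out WT replicate 1, WT replicate 2 or KO2 replicate 3 ended the call, and without the last the change was -0.16. Asns, asparagine synthetase and a standard readout of ATF4, measured 1326, 1299 and 1365 in WT, 1318, 1357 and 1381 in KO1, and 1370, 1366 and 1408 in KO2, a difference of 0.06 ± 0.04 in KO2 that did not pass (adjusted p = 0.31).

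The other tested regulators and effectors of the ATF4 arm gave no call in KO2: the factors Atf5, Cebpg and Nupr1, the glutathione-degrading enzyme Chac1, the translation inhibitor Eif4ebp1 and Ppp1r15a, whose product GADD34 directs the dephosphorylation of eIF2. Their KO2 differences ran from -0.15 for Atf5 to 0.18 for Cebpg. Chac1 had its largest difference in KO1, where the libraries at 12.5, 12.9 and 10.8 all lay below WT at 18.1, 14.7 and 15.5; the difference of -0.38 ± 0.14 did not pass (adjusted p = 0.18).

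All 5 tested amino acid transporters changed in KO2, 2 upward, both of them chains of LAT1, and 3 downward. Slc7a5 and Slc3a2 encode the light and heavy chains of this transporter, which exchanges large neutral amino acids such as leucine. Slc7a5 measured 589, 581 and 609 in WT, 581, 593 and 625 in KO1, and 696, 666 and 646 in KO2, a rise of 0.17 ± 0.04 (adjusted p = 0.0016). Slc3a2 measured 438, 422 and 450 in WT, 443, 433 and 429 in KO1, and 497, 479 and 487 in KO2, a rise of 0.16 ± 0.04 (adjusted p = 0.0045). For both chains every KO2 library lay above every WT and every KO1 library, and KO1 overlapped WT.

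The cationic amino acid transporters for arginine and lysine fell. Slc7a3 (CAT3), on chromosome X (101079210 to 101086020, minus strand), measured 166, 170 and 171 in WT, 162, 152 and 167 in KO1, and 132, 127 and 128 in KO2. Its fall of -0.39 ± 0.06 (adjusted p = 7.2e-07) had the smallest adjusted p of all 38 tested members in KO2 against WT. Over 310 tested genes of chromosome X the median was -0.02 in KO2 against WT, beside 0.02 over all tested genes. In KO2 against KO1 it was -0.05, beside -0.007. Slc7a1 (CAT1) measured 384, 368 and 402 in WT, 356, 349 and 376 in KO1, and 340, 332 and 335 in KO2, a fall of -0.19 ± 0.04 (adjusted p = 0.0012). Slc38a2 (SNAT2), which carries small neutral amino acids with sodium, measured 427, 449 and 425 in WT, 396, 398 and 415 in KO1, and 393, 394 and 379 in KO2, a fall of -0.16 ± 0.04 (adjusted p = 0.0061). All KO2 libraries of these 3 genes lay below all WT and all KO1 libraries; for Slc38a2 the KO1 libraries also lay below WT, without a call (-0.10 ± 0.04, adjusted p = 0.26).

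**Figure D3:**
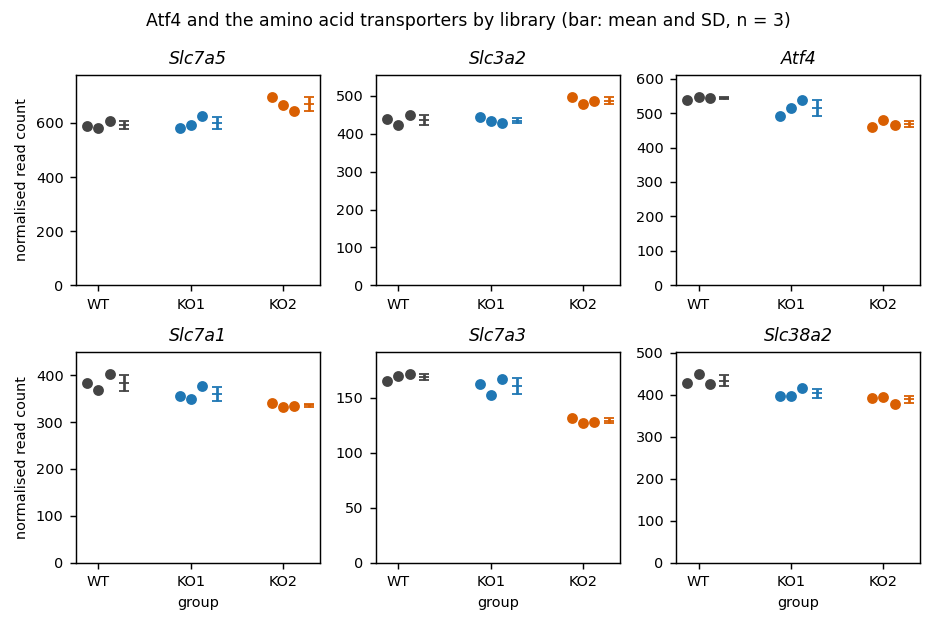
Scaled (normalised) read counts of Atf4 and the 5 tested amino acid transporter genes, with a point per library and a bar for the group mean and SD (n = 3) beside them; each axis starts at 0. KO2 libraries are the highest for Slc7a5 and Slc3a2, up to 696 and 497, and the lowest for Slc7a1, Slc7a3 and Slc38a2, down to 332, 127 and 379.

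In the ER arm the rise in KO2 reached chaperones, disulfide isomerases and both lectin chaperones. Hsp90b1 encodes GRP94, the HSP90 of the ER, and measured 1538, 1569 and 1568 in WT, 1645, 1626 and 1632 in KO1, and 1663, 1680 and 1907 in KO2. It rose by 0.16 ± 0.04 in KO2 (adjusted p = 0.0017); without KO2 replicate 3, which stands above the other 2, the change was 0.10 and still passed. By annotation, 10.3% of its exon bases lie opposite another gene and 5.38% overlap others on its strand; strand use in counting is not given in the sources used here. Hyou1 encodes a large chaperone that helps BiP exchange nucleotide, and measured 605, 578 and 591 in WT, 620, 625 and 631 in KO1, and 671, 668 and 655 in KO2 (0.17 ± 0.04, adjusted p = 0.0014). For both genes the 3 groups did not overlap and stood in the order WT, KO1, KO2.

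BiP itself, Hspa5, the most used mRNA marker of ER stress, was not called. It measured 1047, 1035 and 1023 in WT, 1018, 1065 and 1103 in KO1, and 1037, 1082 and 1158 in KO2, overlapping in all groups (KO2 0.08 ± 0.04, adjusted p = 0.18). Sdf2l1, a co-chaperone that keeps client proteins of BiP soluble, measured 40.0, 34.3 and 46.4 in WT, 41.8, 41.5 and 40.7 in KO1, and 50.5, 54.7 and 51.3 in KO2. Its rise of 0.38 ± 0.09 in KO2 (adjusted p = 0.0019) put every KO2 library above all WT and KO1 libraries. The other co-chaperones, Dnajb9, Dnajb11 and Dnajc3, were not called, with KO2 differences from 0.06 to 0.12.

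Among the disulfide isomerases, which form and reshuffle disulfide bonds, Pdia6 measured 841, 782 and 820 in WT, 829, 848 and 828 in KO1, and 892, 918 and 923 in KO2, every KO2 library above all others (0.16 ± 0.04, adjusted p = 0.0018). Pdia4 measured 611, 565 and 586 in WT, 615, 618 and 641 in KO1, and 635, 621 and 665 in KO2. Both knockout lines lay above WT for Pdia4 without overlap. Pdia4 lies on chromosome 6, where the KO1 median log2 fold change over 464 tested genes was 0.06, against 0.02 over all tested genes. The KO2 rise of Pdia4, 0.12 ± 0.04 (adjusted p = 0.025), did not pass on leaving out replicate 2 or 3 of WT or replicate 1 or 3 of KO2. Scaling by median ratios also ended the call. Pdia3, the isomerase that works with calreticulin and calnexin, differed by 0.03 in KO2 and was not called.

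Calreticulin and calnexin bind newly made glycoproteins through their sugars. Calr measured 2475, 2263 and 2388 in WT, 2338, 2377 and 2358 in KO1, and 2516, 2573 and 2727 in KO2, a rise of 0.13 ± 0.04 (adjusted p = 0.0063) that did not pass after quantile normalization. Canx measured 1081, 1078 and 1030 in WT, 1163, 1130 and 1118 in KO1, and 1186, 1133 and 1274 in KO2, a rise of 0.17 ± 0.04 (adjusted p = 0.0012). All Canx libraries of both lines lay above WT, while Calr was above WT in KO2 alone and overlapped WT in KO1.

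Xbp1, on chromosome 11 (5520659 to 5525893, plus strand), was the transcription factor of the arm. It measured 129, 120 and 123 in WT, 143, 137 and 136 in KO1, and 146, 137 and 157 in KO2. Both lines lay above WT, and the difference passed in KO2 (0.24 ± 0.06, adjusted p = 0.0027) and not in KO1 (0.16 ± 0.06, adjusted p = 0.21). The secreted ER stress proteins Creld2 and Manf were not called in KO2; Creld2 came closest (0.16 ± 0.06, adjusted p = 0.051) and passed without WT replicate 3 and with a minimum mean value of 50.

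Of the 4 members that act in ER-associated degradation, which exports and destroys misfolded proteins, none was called in KO2 by limma. Herpud1, an organiser of the degradation complex and an ER stress target, measured 42.2, 41.9 and 43.3 in WT, 40.3, 37.2 and 41.9 in KO1, and 35.3, 35.1 and 37.5 in KO2. All KO2 libraries lay below WT, with a difference of -0.23 ± 0.09 that missed the threshold (adjusted p = 0.056) and passed with edgeR, with quantile normalization and with median-ratio scaling. The lectin Edem1, the adaptor Sel1l and its ubiquitin ligase partner Syvn1 (HRD1) differed by 0.13, 0.13 and -0.06 in KO2 and were not called; Sel1l had an unadjusted p of 0.037. Edem2, a degradation gene outside the 42, was called higher in KO2.

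None of the 4 sensor genes was called in KO2 by limma, edgeR or DESeq2, and 1 had an unadjusted p under 0.05, Eif2ak3. Its values were 77.7, 74.9 and 79.6 in WT, 84.4, 85.2 and 84.7 in KO1, and 85.1, 83.99 and 90.9 in KO2, both lines above WT (KO2 0.16 ± 0.07, adjusted p = 0.084). Like Pdia4, Asns and Edem1, Eif2ak3 lies on chromosome 6. In KO1 these genes differed from WT by 0.09, 0.02, 0.01 and 0.13 in that order. Ern1 measured 37.4, 34.8 and 37.7 in WT, 36.6, 38.2 and 39.7 in KO1, and 34.9, 42.9 and 40.5 in KO2 (0.10 ± 0.09, adjusted p = 0.49). These groups overlapped. Eif2ak4 measured 98.5, 85.2 and 97.4 in WT, 92.5, 89.8 and 103 in KO1, and 109, 97.4 and 94.2 in KO2 (0.10 ± 0.07, adjusted p = 0.35). Atf6 measured 83.5, 75.2 and 76.5 in WT, 80.4, 85.1 and 80.4 in KO1, and 76.2, 75.8 and 92.2 in KO2 (0.05 ± 0.07, adjusted p = 0.69). Neither gene separated the groups.

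**Figure D4:**
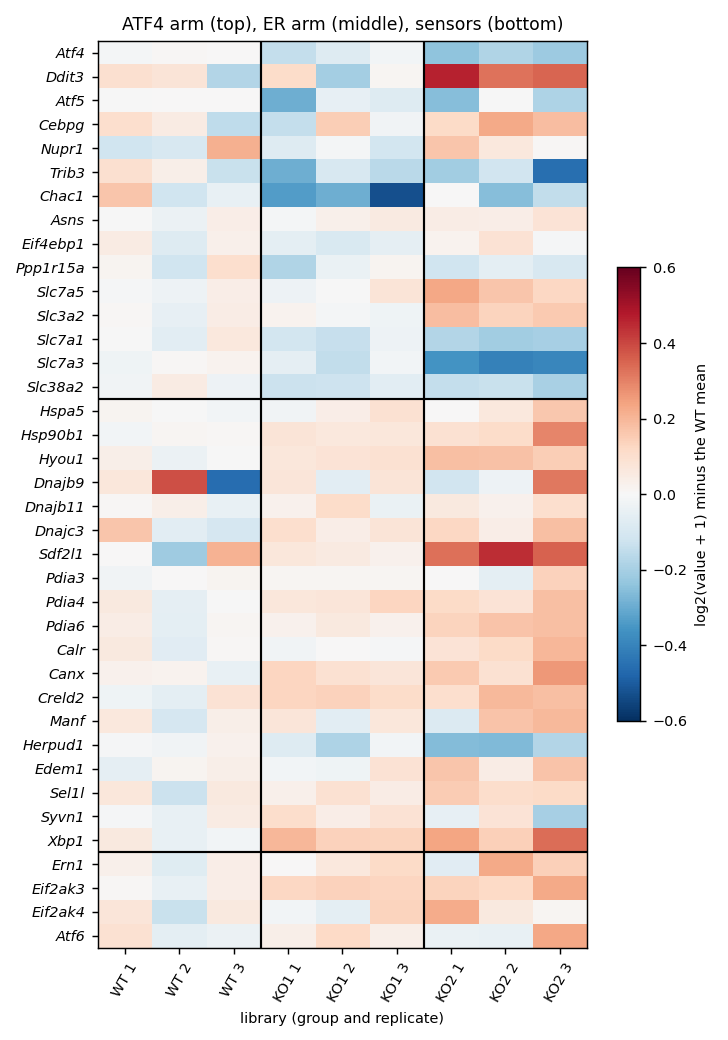
Log2(value + 1) of each tested member in each library relative to the WT mean, ordered by arm and coloured from -0.6 to 0.6. Slc7a3 is low and Sdf2l1 high in all 3 KO2 libraries, while the KO1 columns hold no called gene.

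Set side by side, the median log2 fold change over tested members in KO2 was 0.13 for the ER arm and -0.09 for the ATF4 arm, against 0.02 over all tested genes. The ER arm median exceeded that of the ATF4 arm by 0.22 in KO2 and by 0.12 in KO1. The ATF4 arm median in KO2 was -0.04 without WT replicate 3 and -0.03 with no filter on low values. Within that arm the transporters had a KO2 median of -0.16 and the other 10 tested genes one of -0.03. Measured against the WT mean, the ER arm median by library was 0.10, 0.09 and 0.18 in KO2, 0.07, 0.05 and 0.07 in KO1, and from -0.04 to 0.02 in WT. On this scale both lines lay above WT, and KO2 replicate 3 stood above the rest. The median over all tested genes was 0.02, 0.02 and 0.03 in the KO1 libraries and 0.01, 0.01 and 0.03 in the KO2 libraries. The ER arm median in KO1 against WT was 0.05, and became 0.03 with median-ratio scaling and 0.02 with edgeR. The ATF4 arm median by library was -0.11, -0.08 and -0.03 in KO1, 0.004, -0.004 and -0.10 in KO2, and from -0.03 to 0.02 in WT, so that KO2 replicates 1 and 2 lay within the WT range and replicate 3 below it. Without KO2 replicate 3, 7 ER arm genes were called higher in KO2 and the arm's median was 0.10. With scaling by median ratios or by quantiles the ER arm gave 7 rises and 1 fall, Herpud1, and the ATF4 arm kept 3 rises and 5 falls.

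The element in the promoter did not divide the called genes from the others in a simple way. Of the ER arm genes with a promoter entry, 4 of the 7 called higher in KO2 held an ERSE (Hsp90b1, Pdia6, Calr and Canx), as did 4 of the 10 not called, Hspa5 among them. Of the ATF4 arm genes with an entry, CARE was in 1 of the 4 called lower (Trib3), in 0 of the 2 called higher with an entry, and in 3 of the 6 not called. Elements farther than 250 bases before or 50 bases after a start site were not searched for, so a gene without a match may hold one elsewhere.

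**Figure D5:**
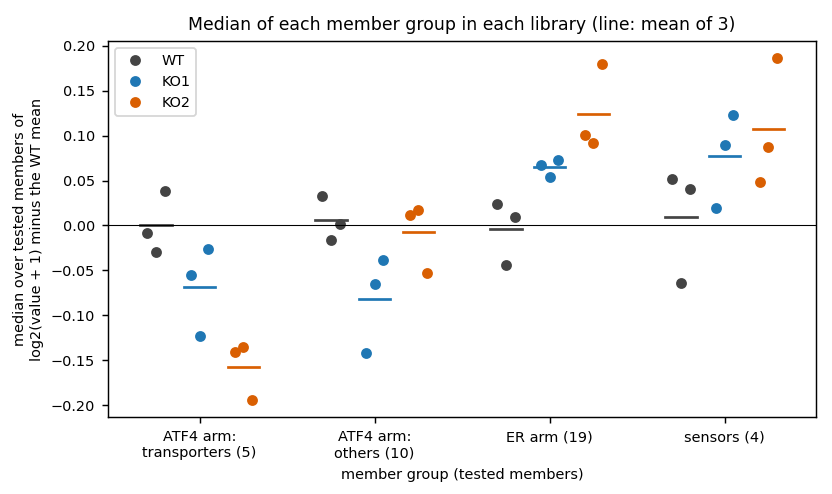
Median over tested members of log2(value + 1) minus the WT mean, for the ATF4 arm's transporters, its other genes, the ER arm and the sensors, with a point per library and a line at the mean of 3. The ER arm lies at 0.09 to 0.18 in KO2 and 0.05 to 0.07 in KO1. The transporter median lies at -0.14, -0.14 and -0.19 in KO2 and at -0.06, -0.12 and -0.03 in KO1. In WT it lies at -0.01, -0.03 and 0.04, so that KO1 replicate 3 is within the WT range. Of the transporters, Slc7a5 and Slc3a2 rose in KO2, against the direction of this median.

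Markers of other cell types were checked in the same groups, and the lists did not move alike. Of 10 fibroblast markers, 6 had a row in the table, and Col3a1, Dcn, Lum and Postn had none. The summed value of the 6 was 118 to 122 in WT, 123 to 126 in KO1 and 158 to 161 in KO2. The 3 tested, Col5a1, Fbln2 and Pdgfrb, rose in KO2, with Col5a1 averaging 77.5 in WT and 97.9 in KO2. The other 3 were under the test's minimum: Col1a1 averaged 1.94 in WT and 1.60 in KO2, Col1a2 averaged 3.94 and 3.14, and Thy1 averaged 7.22 and 10.7. Every KO2 library of Col1a2 lay below every WT library, and every KO2 library of Thy1 lay above every WT library. Of 10 primitive endoderm markers, 4 had a row, and these did not move together. Their summed value was 735 to 747 for WT, 741 to 763 for KO1 and 749 to 770 for KO2. Most of this sum came from Sparc, which averaged 722 (WT), 733 (KO1) and 737 (KO2) and was not called. Gata4 averaged 12.6, 13.4 and 20.2 in the same order and was called higher in KO2. Dab2 and Pdgfra were under the test's minimum. Dab2 averaged 5.90 (WT) and 3.42 (KO2), with every KO2 library below every WT library. Pdgfra averaged 1.94 (WT) and 1.18 (KO2), and its KO2 libraries overlapped WT. Of 8 neuron markers, 6 had a row (not Dcx or Rbfox3) and summed to 417 to 424, 352 to 372 and 321 to 342 in WT, KO1 and KO2. The 4 tested were called lower in KO2, and Nefm and Stmn2 also in KO1. Of 8 trophoblast markers, 7 had a row (not Elf5) and summed to 106 to 121, 122 to 137 and 116 to 130. Of the 3 tested, 0 were called in KO1 or KO2. The part of these cell types in the changes of either arm was not tested. In bulk samples a change in the share of a cell type and a change in RNA per cell cannot be told apart.

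In KO1 against WT none of the 38 tested members was called by limma, edgeR or DESeq2, beside 1.06% of all tested genes called in either direction by limma (85 higher and 24 lower, or 62 and 42 with median-ratio scaling). At an unadjusted p under 0.05, which 1304 of the 10238 tested genes met, limma gave 4 ATF4 arm genes, all lower, and 5 ER arm genes, all higher. The ER arm count at that p was 1 with edgeR, DESeq2 or median-ratio scaling and 2 with quantile normalization, and the ATF4 arm count was 5 or 6. The estimates leaned the same way, negative for 13 of 15 ATF4 arm genes and positive for 17 of 19 ER arm genes, with medians of -0.07 and 0.05 against 0.02 over all genes; the ER arm median was 0.02 with edgeR and 0.03 with median-ratio scaling. These directions rest on the same WT libraries as the KO2 comparison and on members that share regulators, and are given as counts only.

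Averaged over both lines, 6 ER arm genes rose and 0 fell (limma; 1 lower at an unadjusted p under 0.05). Of the ATF4 arm, 4 genes fell and 0 rose (2 higher at an unadjusted p under 0.05). edgeR and DESeq2 likewise called 0 ER arm genes lower and 0 ATF4 arm genes higher. The background was 6.16% higher and 2.93% lower, or 631 and 300 genes, which became 459 and 479 with median-ratio scaling. The ER arm calls were Hsp90b1, Hyou1, Pdia4, Pdia6, Canx and Xbp1 (0.20 ± 0.05, adjusted p = 0.0077), and the ATF4 arm calls were Atf4 (-0.15 ± 0.04, adjusted p = 0.0043), Slc7a1, Slc7a3 (-0.23 ± 0.05) and Slc38a2. Of these 10 calls, Atf4 and Slc7a3 were kept whichever library was left out. In KO1 alone neither was called (-0.08 ± 0.04 and -0.07 ± 0.06, limma adjusted p = 0.42 and 0.64), and both were lower in KO2 than in KO1. None of the 10 was kept when both lines were fitted as 1 group, where the difference between the lines adds to the spread. The ER arm count was 2 without WT replicate 2, 3 without WT replicate 3 or without KO1 replicate 1, and 3 with median-ratio scaling or DESeq2.

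The lines themselves differed, which was tested directly as KO2 against KO1. Of the ATF4 arm, Ddit3 (0.41 ± 0.11, adjusted p = 0.015), Slc7a5 (0.16 ± 0.04) and Slc3a2 (0.16 ± 0.04) were higher in KO2, and Slc7a3 (-0.31 ± 0.06, adjusted p = 8.1e-05) and Atf4 (-0.14 ± 0.04, adjusted p = 0.026) were lower. Of the ER arm, Sdf2l1 (0.33 ± 0.09), Pdia6 (0.13 ± 0.04) and Calr (0.14 ± 0.04) were higher and 0 lower, also by edgeR and DESeq2 and at an unadjusted p under 0.05. Among all tested genes 4.71% were called higher and 5.22% lower. Of these 8 calls, those of Slc3a2, Slc7a3 and Calr held whichever library was left out; after quantile normalization those of Calr and Atf4 did not pass. Without KO1 replicate 2 or KO2 replicate 1 the ATF4 arm count was 2, and without KO1 replicate 3 or KO2 replicate 2 the ER arm count was 1.

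Genes of the same pathways outside the 42 gave a partly different picture. Of 21 other ATF4 targets, all tested, 5 rose in KO2 (Phgdh, Psph, Pck2, Ddit4 and Pycr1) and 1 fell (Sesn2), beside 11.0% higher and 7.51% lower over all tested genes, with a median of 0.04; with edgeR, DESeq2 or either other scaling 4 were called higher and 1 lower. Ddit4, which encodes the mTORC1 inhibitor REDD1, measured 103, 97.0 and 91.8 in WT, 107, 102 and 107 in KO1, and 159, 137 and 131 in KO2, a rise of 0.54 ± 0.07 (adjusted p = 1e-08). Phgdh, the first enzyme of serine synthesis, measured 191, 165 and 181 in WT, 203, 193 and 195 in KO1, and 249, 238 and 207 in KO2 (0.37 ± 0.06, adjusted p = 3.5e-06). Pycr1, which completes proline synthesis, rose by 0.40 ± 0.06 (adjusted p = 4.5e-06), and Psph, the last step of serine synthesis, was higher in KO2 than in KO1 by 0.32 ± 0.07 (adjusted p = 0.0012).

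Of 64 other ER folding, glycosylation, translocation and degradation genes, 61 were tested; 13 rose in KO2 and 0 fell, beside 11.0% and 7.51% of all tested genes, and the median was 0.08. At an unadjusted p under 0.05, 2 were lower. edgeR and DESeq2 called 0 lower and 11 and 12 higher, and median-ratio scaling and quantile normalization each gave 11 higher and 1 lower. Sil1, a nucleotide exchange factor of BiP, measured 23.6, 25.9 and 21.7 in WT, 29.7, 26.3 and 26.1 in KO1, and 40.1, 36.9 and 33.1 in KO2, a rise of 0.61 ± 0.10 (adjusted p = 2.2e-05). Uggt1, which returns misfolded glycoproteins to calnexin and calreticulin, measured 768, 793 and 805 in WT, 791, 841 and 830 in KO1, and 932, 879 and 971 in KO2 (0.23 ± 0.04, adjusted p = 2.2e-05). Rpn1, a subunit of the oligosaccharyl transferase, rose by 0.22 ± 0.04 (adjusted p = 0.00019), and the disulfide isomerase Txndc5 by 0.19 ± 0.05 (adjusted p = 0.0018). Both Sil1 and Uggt1 were above every WT and KO1 library in every KO2 library. In KO1 no gene of either list was called by limma, edgeR or DESeq2; at an unadjusted p under 0.05 limma gave 2 other ATF4 targets higher and 2 lower, and 6 other ER genes higher and 1 lower.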

How the data were processed

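Poly-A RNA was sequenced from 9 libraries as paired reads of 50 bases with a stranded kit, per the labels' protocols. The submitters' processing notes name HISAT2, DESeq2 and the build GRCm38; annotation and strand setting of the counting: not given in the sources used here. Signal values as deposited are gene read counts divided by a factor per library: 100% of values came out as whole reads within 0.05 read. The main test was limma 3.58.1 (R 4.3.3) on log2(value + 1) over all 9 libraries, with variance trend and robust moderation, for genes averaging 10 or more, and Benjamini-Hochberg adjustment over 10238 genes at 0.05, two-sided. The pseudocount of 1 understates changes of low genes. edgeR 4.0.16 and DESeq2 1.42.0 on the recovered reads were alternatives, calling 1882 and 1699 genes in KO2 against WT where limma called 1892; others changed the pseudocount, filter, scaling, block or groups, or left out 1 library. The fit was tested on simulated data with planted changes. The pass mark for recovery covered only planted changes larger than any called for a member, so recovery at the members' size was not part of it. Exon lengths and positions are from GENCODE on GRCm38.

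The members and gene lists were chosen with earlier results of these data known. Values per library are given for members called in any comparison and for Atf4, Ddit3, Asns, Trib3, Hspa5, Xbp1, Herpud1 and the sensors. Each further list gives values for up to 4 called genes, by smallest adjusted p in the mean contrast or KO2 against KO1. Pck2, Sesn2, Gcn1, Eif2b5, Gars and Edem2 are called genes named beyond that rule, without values. Full promoters are shown for 3 genes of the ER arm. Values of Chac1 are given in addition, chosen after they were seen.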

Additional observations from a re-analysis of the deposited data

Results flagged for a closer look

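The following genes are listed because the test of KO2 against KO1, which is the difference between the 2 lines' changes against WT, passed the threshold (limma, adjusted p under 0.05). Each value is that difference on the log2 scale with its standard error; the share of all tested genes called was 4.71% higher and 5.22% lower.

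In the ATF4 arm the difference was -0.14 ± 0.04 for Atf4, 0.41 ± 0.11 for Ddit3, 0.16 ± 0.04 for Slc7a5, 0.16 ± 0.04 for Slc3a2 and -0.31 ± 0.06 for Slc7a3. In the ER arm it was 0.33 ± 0.09 for Sdf2l1, 0.13 ± 0.04 for Pdia6 and 0.14 ± 0.04 for Calr. Among other ATF4 targets it was 0.42 ± 0.07 for Ddit4, 0.23 ± 0.06 for Phgdh, 0.24 ± 0.06 for Pycr1 and 0.32 ± 0.07 for Psph. Among other ER genes it was 0.41 ± 0.10 for Sil1, 0.18 ± 0.04 for Uggt1 and 0.12 ± 0.04 for Rpn1. Among regulators of eIF2 it was -0.26 ± 0.06 for Impact, -0.22 ± 0.06 for Eif2ak1 and -0.14 ± 0.05 for Ppp1r15b.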

How the results depend on the processing

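No called member changed sign under an alternative. The ATF4 arm median in KO2 against KO1, which carries no test, went from 0.03 to -0.006 with quantile normalization, and the all-gene median in KO2 from 0.02 to -0.008 with median-ratio scaling. In KO2, 12 of the 16 member calls held in every alternative run for them (Sdf2l1 falls outside a minimum mean of 50); Ddit3, Trib3, Pdia4 and Calr did not. The ATF4 arm median in KO2 was -0.0278 without a filter on low values and -0.0297 with a minimum mean of 50; these settings change which genes are tested. In the mean over both lines, ER arm calls fell to 3 with median-ratio scaling and 3 with DESeq2, and with both lines as 1 group the calls were 0 in the ATF4 arm, 0 in the ER arm and 216 over all genes. With one library left out, calls ranged in the ATF4 arm from 7 to 8 in KO2, 3 to 5 in the mean and 2 to 6 in KO2 against KO1, and in the ER arm from 7 to 8, 2 to 5 and 1 to 4; KO1 gave 0 in both. Over all genes they ranged from 50 to 166 in KO1, 1324 to 1808 in KO2, 511 to 1063 in the mean and 521 to 1207 in KO2 against KO1. Medians ranged in the ATF4 arm from -0.132 to -0.0406 in KO2 and -0.106 to -0.0293 in the mean, and in the ER arm from 0.0209 to 0.0795 in KO2 against KO1. The KO2 split over all genes was 1123 higher and 769 lower, 897 and 1023 with median-ratio scaling, and 929 and 916 with quantiles; the all-gene median moved by at most 0.024. Same-numbered libraries did not deviate together (r from -0.13 to 0.03 over 9 pairs, 1 correlating best with its own number); with the replicate block 8 ATF4 arm and 8 ER arm genes were called in KO2, and 4 and 4 in the mean. The lowest-expressed members, with values under 10, were at a depth that does not resolve changes of the size seen here.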

Other observations

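Of 14 eIF2 kinases, eIF2B subunits and regulators outside the 42 genes, 1 rose in KO2 (Gcn1) and 3 fell (Eif2ak1, Eif2b1 and Eif2b5), beside 11.0% higher and 7.51% lower over all tested genes. With edgeR, DESeq2 or median-ratio scaling 0 were called higher, and 3, 3 and 4 lower; 1 was higher at an unadjusted p under 0.05 in each. Eif2ak1 encodes the heme-regulated eIF2 kinase HRI and measured 121, 136 and 128 in WT, 129, 132 and 129 in KO1, and 107, 117 and 111 in KO2, all KO2 libraries below the others (-0.20 ± 0.06, adjusted p = 0.016). Eif2b1, a subunit of the exchange factor that phosphorylated eIF2 inhibits, measured 136, 136 and 137 in WT, 128, 122 and 128 in KO1, and 115, 120 and 120 in KO2 (-0.20 ± 0.06, adjusted p = 0.0097). Impact, an inhibitor of GCN2, measured 154, 167 and 142 in WT, 174, 176 and 163 in KO1, and 139, 137 and 150 in KO2, so that the lines separated from each other and not from WT in KO2 (-0.11 ± 0.06, adjusted p = 0.17).

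Of 12 aminoacyl-tRNA synthetases, several of which are ATF4 targets, 2 rose in KO2 (Gars and Sars) and 0 fell (limma), beside the same 11.0% and 7.51%. At an unadjusted p under 0.05, 0 were lower in limma, 1 in edgeR and 1 in DESeq2, which also called 0 lower. Median-ratio scaling gave 1 higher and 0 lower, with 3 lower at an unadjusted p under 0.05, and quantile normalization 2 higher and 1 lower. The median was -0.01. Sars measured 479, 428 and 446 in WT, 474, 483 and 462 in KO1, and 493, 517 and 505 in KO2 (0.16 ± 0.04, adjusted p = 0.0044).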
